A study of Mus musculus with 8 samples.

Results

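The clustered zinc-finger genes are 230 protein-coding autosomal genes of the mouse whose RefSeq symbol starts with Zfp and that have at least 2 other Zfp genes within 500 kb, measured from gene start to gene start. They were taken from 391 autosomal Zfp genes, and the 161 remaining Zfp genes served as a comparison only. In all, 21631 protein-coding genes on the autosomes and X were measured. The study profiled dimethylated lysine 9 of histone H3 (H3K9me2) by CUT&RUN, per the titles, in regulatory T cells (Treg) that infiltrated tumours, with C57BL/6 mice of 8 to 12 weeks as donors. The protocol in the labels names a CUT&Tag kit for these libraries. Jmjd1c had been knocked out conditionally in Treg in 3 libraries (genotype JMJD1CTregcKO, cKO below), and 3 came from JMJD1CWT mice (WT below). One ATAC-seq library of tumour Treg and 1 of spleen Treg, both JMJD1CWT, mapped open chromatin. The Cre driver, the tumour model and whether animals were pooled are not given in the sources used here, and p-values therefore measure only the spread between these libraries. The comparison asks where H3K9me2 differs when Treg lack JMJD1C.

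Mouse Zfp genes mostly encode C2H2 zinc-finger proteins, which bind DNA through arrays of zinc fingers. Many of them carry a KRAB domain, through which they recruit TRIM28 and the methyltransferase SETDB1 to silence retroelements. KRAB zinc-finger genes arose largely by tandem duplication and lie in clusters, which in many cell types carry H3K9 methylation themselves. H3K9me2 is laid down mainly by EHMT1 and EHMT2, and JMJD1C belongs to the KDM3 family of H3K9 demethylases. The rule selects by symbol, so a few members have other functions, such as Zfp36, which encodes the RNA-binding protein tristetraprolin.

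The members formed 34 clusters on 14 chromosomes. Of these clusters, 18 held 5 or more members and together 180 of the 230 genes, 15 held 3 or 4, and 1 gene, Zfp965, counted only neighbours that did not meet the rule themselves. Chromosome 7 carried 79 members, chromosome 17 carried 39 and chromosome 13 carried 27. The median gene was 16.1 kb long, with a range from 2.444 kb for Zfp36 to 478.62 kb for Zfp993. The measure was the percentage of a gene, with 5 kb on both sides, that was covered by H3K9me2 peaks of a library. The extended spans of 105 members overlapped that of another member, so neighbouring values are not independent.

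Library depth was 24774509 to 30313851 tags for H3K9me2, and peaks covered 3.39 to 5.36% of the genome. Peaks had been called in each library alone without a control, so covered length measures local enrichment and not the total amount of the mark. In sorted bulk cells, fewer cells with the mark and less of it per cell cannot be told apart. The sample names in the file headers share no prefix between cKO and WT, so a preparation batch and the genotype cannot be told apart. Those of cKO replicates 1 and 3 carry the same knockout number, and no source used here says whether both came from 1 mouse. If so, the cKO spread and each count without overlap rest on fewer than 3 animals. Cell identity was checked on ATAC peaks: 7 of 8 Treg marker genes had a peak in tumour and in spleen, Ctla4 having none, against 1 of 5 CD8 T and NK cell, 2 of 4 B cell, 3 of 5 myeloid, 1 of 5 melanocyte and epithelial and 2 of 5 stromal and endothelial markers in tumour. Summed H3K9me2 coverage of the 5 myeloid markers was 17.8 to 26.6% in cKO and 10.5 to 13.2% in WT. That of the 5 melanocyte and epithelial markers was 21.96 to 24.8% and 16.6 to 20.1%. Of the latter, Dct, Epcam and Krt8 had a higher mean in cKO, and Mlana and Tyr a lower one. Sums of the Treg, CD8 T and NK cell, B cell, and stromal and endothelial markers overlapped between genotypes. All genes together were also higher in cKO, by 1.12 points per gene on average. The part of other cells in the results was not tested.

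Clustered Zfp genes carried more H3K9me2 peak coverage than other genes in every library. Mean covered percent over the 230 members was 4.64, 5.26 and 4.17% in the 3 WT libraries and 7.02, 6.97 and 5.35% in the 3 cKO libraries. All 3 cKO libraries lay above all 3 WT libraries, by a narrow margin between cKO replicate 3 and WT replicate 2. The means were 6.44 ± 0.949% in cKO and 4.69 ± 0.545% in WT (SD, n = 3), a difference of 1.75 percentage points. The remaining Zfp genes stood at 4.51 ± 0.760% and 3.16 ± 0.577%, and other autosomal genes at 4.08 ± 0.577% and 2.94 ± 0.525%. Clustered genes exceeded the remaining Zfp genes by 1.02 to 2.04 points in WT libraries and by 1.71 to 2.09 points in cKO libraries, that is, in 6 of 6 libraries. The WT excess, 1.52 ± 0.513 points, was 0.602 points when only the stronger peaks of each list were kept.

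All genes together differed in the same direction, by 1.12 points. Genome-wide coverage was 5.36, 4.45 and 3.63% in cKO and 3.89, 4.10 and 3.39% in WT, and these libraries overlap. When divided by its library's genome-wide coverage, member coverage was 1.45 ± 0.131 in cKO and 1.24 ± 0.0466 in WT (SD, n = 3), again without overlap. On that scale the remaining Zfp genes were also higher in cKO, narrowly without overlap, at 1.01 ± 0.0802 and 0.837 ± 0.148. All genes stood at 0.947 ± 0.110 in cKO and 0.813 ± 0.118 in WT, so the rise was not particular to members. After that scaling the member difference was 0.885 points, and with all peak lists shortened to the same length it was 0.859 points. The median difference after scaling was 0.974 points in members and 0.552 over all genes. No test was made on this mean, since the genes were not chosen blind to earlier results.

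**Figure D1:**
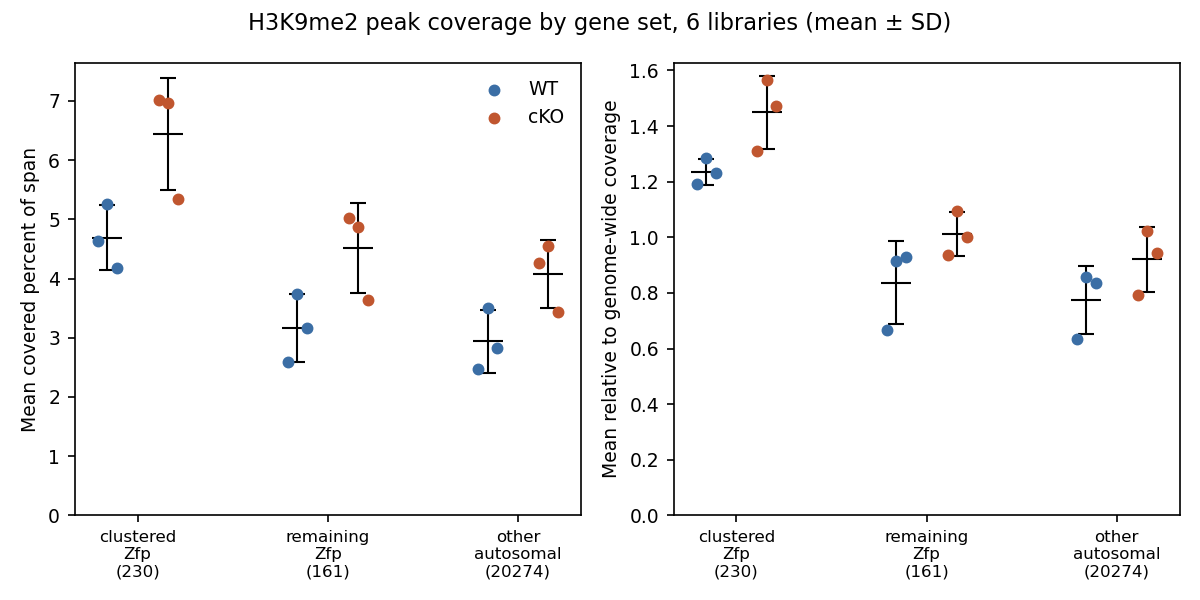
Mean covered percent of the gene span (left) and the same relative to genome-wide coverage (right) for clustered Zfp, remaining Zfp and other autosomal genes. Each point is 1 library, and bars give the mean ± SD of 3; clustered genes are the highest set in all 6 libraries on both scales.

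At the edge of the rule the sets were close to each other in WT. The 38 members with exactly 2 other Zfp genes nearby had a WT mean of 3.55 ± 0.196% and a cKO mean of 5.85 ± 1.37% (SD, n = 3). The 36 remaining genes with exactly 1 such neighbour had 3.44 ± 0.457% and 4.71 ± 1.28%. Other protein-coding genes lying inside the clusters of 5 or more, 149 in number, reached 4.14 ± 0.637% in WT and 5.22 ± 0.954% in cKO, against 4.79 ± 0.607% and 6.29 ± 0.857% for the 180 members there. Both lay above the mean of other autosomal genes, and in 10 of the 18 large clusters the gaps between member spans had higher WT coverage than the spans. Over all 34 clusters, gap coverage in WT was higher in 23 and lower in 10.

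Peaks were dispersed and small. Of the 230 members, 123 held a peak in all 6 libraries, 104 in 1 to 5 libraries and 3 in none. The 3 without any peak were Zfp965 on chromosome 2 and the neighbours Zfp987 and Zfp600 on chromosome 4, which also had no ATAC peak in either tissue. The joined member spans amounted to 6.96 Mb, or 0.264% of the sequence, and held 404 to 599 peaks per library, or 0.336 to 0.393% of its peaks. The median peak there was 500 to 628 bp long, and 9 to 17 peaks per library reached 2 kb. The longest, 4506 bp, lay at Zfp442 on chromosome 2 in cKO replicate 2. The members without a peak in a library made up 20.9 ± 5.01% in WT and 12.2 ± 1.57% in cKO (SD, n = 3).

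Which member was high differed much between libraries. Spearman's rho over the 230 members was 0.304 to 0.383 between WT libraries, 0.256 to 0.351 between cKO libraries and 0.232 to 0.417 across genotypes. These are descriptions across genes that share libraries and, in part, spans. Ranks were no more alike within a genotype than between genotypes.

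The members with the highest coverage over all 6 libraries were Zfp773, Zfp937, Zfp994, Zfp114, Zfp160, Zfp418, Zfp712 and Zfp660. Zfp773 on chromosome 7 was covered at 14.5, 10.1 and 6.22% in WT and 13.2, 13.6 and 17.3% in cKO. Zfp937 on chromosome 2 was covered at 14.9, 11.8 and 10.05% in WT and 13.9, 12.4 and 11.3% in cKO. Zfp994 on chromosome 17 was covered at 14.7, 11.0 and 14.2% in WT and 16.5, 11.6 and 5.98% in cKO. In all 3 genes the genotypes overlapped, and Zfp937 had nearly the same mean in both, 12.2 ± 2.46% in WT and 12.6 ± 1.32% in cKO (SD, n = 3). Single libraries dominated others: Zfp712 on chromosome 13 reached 23.8% in WT replicate 2 and 21.0% in cKO replicate 1 but 4.96 to 9.87% elsewhere. Zfp160 on chromosome 17 reached 22.6% in WT replicate 3 and was at 3.76% in cKO replicate 3. Zfp114 and Zfp660 had no ATAC peak in either tissue, while the other 6 had one in tumour.

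Across genotypes, 159 members had a higher mean in cKO, 65 a lower mean and 6 the same. The median difference was 1.69 points, against 1.03 over all genes. Members started from a higher level, with means of 4.69% in WT and 6.44% in cKO, against 3.08% and 4.20% over all genes. A larger difference in points is therefore not a larger proportional rise. The groups did not overlap, with cKO higher, for 29 members, or 12.6% of them, where 11.6% of all genes did the same. They did not overlap with cKO lower for 3 members, or 1.30%, against 1.19% of all genes. Both shares were close to the genome's. With coverage scaled to the library, 20 members were higher without overlap, against 8.67% of all genes, and 5 lower, against 2.7%. Equal-length peak lists left 15 higher. Without cKO replicate 3 the count of higher members was 60 and without WT replicate 2 it was 45. The count of lower members was 12 without cKO replicate 1, and 9, 6 and 8 without WT replicates 1, 2 and 3, where fewer libraries can overlap less by construction.

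No member passed the test. By limma over 19015 genes with a mean coverage of 1% or more, 0 of the 220 members tested were called at a Benjamini-Hochberg adjusted p of 0.05, and 0.0% of all genes were called in either direction. Among members the adjusted p began at 0.519. Before adjustment, 23 members had a p under 0.05 and were higher and 1 lower in cKO, against 7.43% and 0.941% of all genes tested. The 10 members not tested had a mean coverage under 1%.

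**Figure D2:**
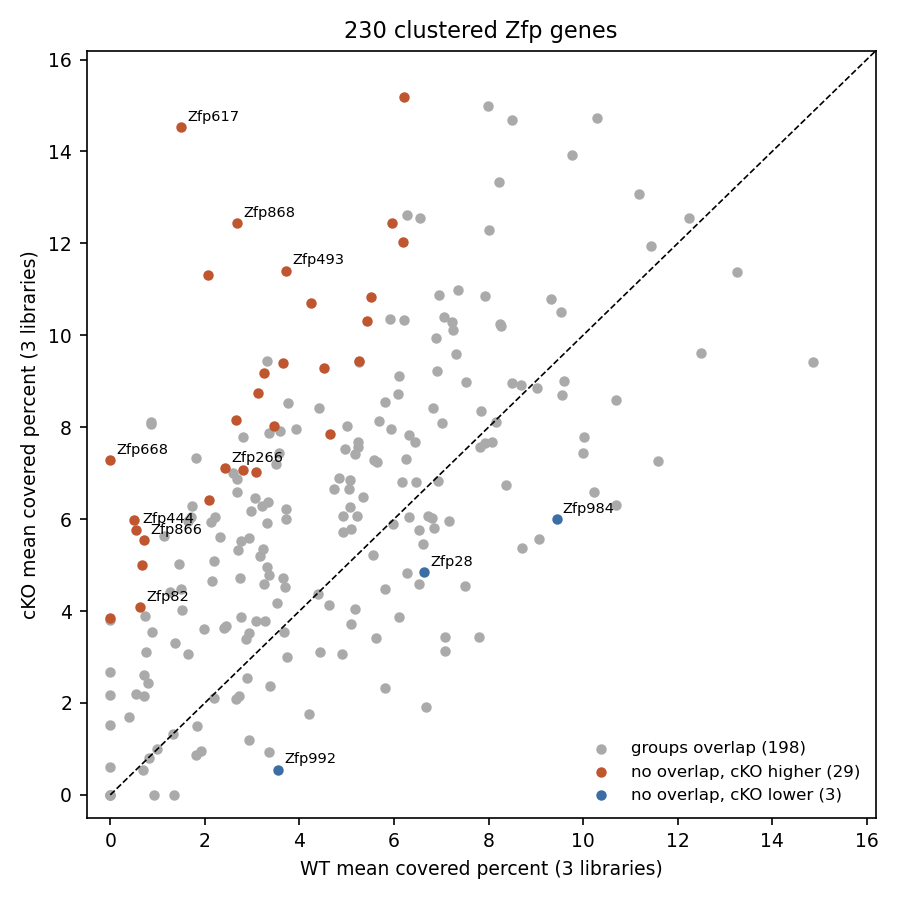
Mean covered percent in cKO against WT for the 230 clustered Zfp genes, 3 libraries each, with the line of equality. Of them, 29 lie above it without overlap of the libraries and 3 below it; labelled genes are those described in the text.

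The member with the smallest p was Zfp617 on chromosome 8. Its span was covered at 14.7, 18.2 and 10.7% in cKO and at 2.29, 0 and 2.19% in WT. Every cKO library was several times above every WT library, yet the difference of 13.04 points (SE 2.52) had an adjusted p of 0.519 by limma. It lay mostly outside the gene: within the gene itself, without the flanks, the difference was 2.16 points. A window of 1 kb downstream of the gene, chr8:71936001-71937000, was covered for 933, 1000 and 1000 bp in the cKO libraries and for 0 bp in each WT library.

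Zfp668 on chromosome 7 encodes a zinc-finger protein without a KRAB domain that is linked to the DNA damage response. It was covered at 4.64, 7.75 and 9.47% in cKO and at 0% in all 3 WT libraries. Zfp868 on chromosome 8 was covered at 15.7, 10.04 and 11.6% in cKO and 2.01, 4.02 and 2.01% in WT. Its neighbour Zfp866 was covered at 4.98, 5.42 and 6.24% in cKO and 0, 0 and 2.12% in WT. These 3 genes, like Zfp617 and those of the next paragraph, were chosen among members whose libraries do not overlap. Their separation of the genotypes was thus fixed by the choice, and each of the 3 had an adjusted p of 0.519 by limma.

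Zfp444 on chromosome 7 was covered at 4.90, 7.52 and 4.90% in cKO and 0, 0 and 1.63% in WT. Zfp266 on chromosome 9 was covered at 6.80, 6.88 and 7.67% in cKO and 3.18, 1.38 and 2.75% in WT. The cKO libraries agreed closely for Zfp266, but its difference of 4.68 points was 0.849 without the flanks, so it too lay beside the gene. Zfp493 on chromosome 13, in a cluster that contains the mouse regulators of sex-limited liver genes, was covered at 8.15, 15.3 and 10.8% in cKO and 5.98, 2.58 and 2.58% in WT. Zfp82 on chromosome 7 was covered at 4.26, 3.73 and 4.24% in cKO and 0, 1.87 and 0% in WT. With equal-length peak lists the difference was 2.51 points for Zfp668, 2.29 for Zfp866, 2.39 for Zfp266 and 2.21 for Zfp82, against 7.28, 4.84, 4.68 and 3.46 with the full lists. The 29 such members differed by 3.22 to 13.04 points, and 12 of them were on chromosome 7 and 4 on chromosome 8.

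The 3 members lower in cKO without overlap were Zfp992 and Zfp984 on chromosome 4 and Zfp28 on chromosome 7. Zfp992 was covered at 0, 0 and 1.64% in cKO and 2.61, 4.75 and 3.29% in WT, a difference of -3.00 points that was -1.24 with equal-length peak lists. Zfp984 was covered at 7.002, 5.75 and 5.26% in cKO and 8.09, 7.74 and 12.5% in WT. The KRAB gene Zfp28 was covered at 6.30, 3.40 and 4.86% in cKO and 6.40, 6.40 and 7.10% in WT, so cKO replicate 1 lay just below the lowest WT library. Adjusted p-values by limma were 0.568, 0.623 and 0.705 in that order.

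Promoters of 6 of these genes are shown as examples. Their starts had an ATAC peak in tumour Treg and their libraries did not overlap between genotypes, although none was called. Zfp266, Zfp82 and Zfp984 met both conditions too and are not shown. Each line gives the 250 bases upstream of 1 RefSeq start of the gene on the GRCm38.p6 build, 5′ to 3′ on the gene's strand. Where a gene has several listed starts, the one with the strongest tumour ATAC peak is shown. Capitals mark CCAAT, the GC box GGGCGG and the ETS motif CCGGAAG on either strand.
Zfp617, chr8:71922575-71922824, plus strand: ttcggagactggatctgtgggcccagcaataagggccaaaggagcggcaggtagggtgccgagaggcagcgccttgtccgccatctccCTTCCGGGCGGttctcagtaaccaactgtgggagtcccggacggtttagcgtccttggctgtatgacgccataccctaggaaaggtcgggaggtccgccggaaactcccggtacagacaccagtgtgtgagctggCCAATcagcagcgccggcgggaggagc
Zfp668, chr7:127875643-127875892, minus strand: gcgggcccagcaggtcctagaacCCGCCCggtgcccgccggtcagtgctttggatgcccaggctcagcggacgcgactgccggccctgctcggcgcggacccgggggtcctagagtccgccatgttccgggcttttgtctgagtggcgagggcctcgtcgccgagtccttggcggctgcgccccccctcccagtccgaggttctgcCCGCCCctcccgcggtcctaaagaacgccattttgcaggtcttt
Zfp868, chr8:69625549-69625798, minus strand: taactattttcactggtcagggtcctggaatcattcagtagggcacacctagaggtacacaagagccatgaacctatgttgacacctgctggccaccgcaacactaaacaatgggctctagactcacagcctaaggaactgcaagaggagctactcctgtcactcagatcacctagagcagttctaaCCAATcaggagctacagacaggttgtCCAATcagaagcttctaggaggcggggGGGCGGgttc
Zfp444, chr7:6172263-6172512, plus strand: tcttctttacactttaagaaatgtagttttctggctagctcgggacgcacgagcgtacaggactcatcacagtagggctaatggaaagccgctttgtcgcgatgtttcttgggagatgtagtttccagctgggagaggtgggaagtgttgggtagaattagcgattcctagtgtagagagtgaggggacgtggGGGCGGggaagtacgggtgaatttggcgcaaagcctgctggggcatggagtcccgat
Zfp866, chr8:69774912-69775161, minus strand: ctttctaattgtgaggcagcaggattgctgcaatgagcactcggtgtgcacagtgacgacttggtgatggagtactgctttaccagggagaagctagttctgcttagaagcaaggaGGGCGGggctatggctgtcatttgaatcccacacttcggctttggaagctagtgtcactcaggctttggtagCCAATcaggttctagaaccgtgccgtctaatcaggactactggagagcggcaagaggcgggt
Zfp28, chr7:6383068-6383317, plus strand: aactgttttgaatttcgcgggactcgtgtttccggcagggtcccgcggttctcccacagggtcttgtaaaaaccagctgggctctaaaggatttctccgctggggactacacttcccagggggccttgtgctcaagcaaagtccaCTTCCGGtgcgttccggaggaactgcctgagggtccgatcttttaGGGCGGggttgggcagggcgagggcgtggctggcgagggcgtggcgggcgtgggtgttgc
Each of the 6 windows held 1 or 2 GC boxes. CCAAT occurred upstream of Zfp617, Zfp868 and Zfp866, and the ETS motif upstream of Zfp617, where it overlaps the GC box, and of Zfp28. ATAC peaks of tumour Treg lay on all 6 starts, as the choice of genes and starts required. Zfp668 and Zfp868 each have another listed start whose promoter window held no tumour ATAC peak. An H3K9me2 peak touched the promoter window of Zfp617 in 1 cKO library, of Zfp868 in 1 WT library and of Zfp28 in 1 library of each genotype, and of the other 3 genes in none.

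Over all 217 listed starts of 199 members, motifs differed in share from other promoters. CCAAT occurred in 50.7% of member windows of 300 bases and in 38.5% of all 21045 windows, on either strand. The ETS motif CCGGAAG occurred in 21.7% against 11.7%. The TATA motif TATAAA occurred in 5.53% against 12.7%, the AP-1 motif TGANTCA in 2.77% against 7.04%, and GGGCGG in 38.3% against 46.7%. The median member window held 11 CpG, against 13 over all. The remaining Zfp genes had the ETS motif in 21.8% and CCAAT in 42.5%. A match is a string of letters and does not show that a factor binds.

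H3K9me2 peaks on member promoters were counted by openness, with no test of the difference. Of the starts, 139 had a tumour ATAC peak on the window, and 13.9 ± 6.53% of them carried an H3K9me2 peak in WT and 13.2 ± 2.53% in cKO (SD, n = 3). The 78 starts without one stood at 6.84 ± 0.740% and 4.70 ± 0.740%. The cKO libraries did not overlap between starts with and without an ATAC peak, at 10.8 to 15.8% against 3.85 to 5.13%. In WT replicate 1 the shares were nearly equal, 7.91% and 7.69%.

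Along the gene, 199 members with a known strand were divided into 5 equal parts. In WT, coverage was 5.19 ± 0.833% in the 5 kb before the gene, 4.35 ± 0.595% in the first part, 3.73 ± 0.753%, 5.44 ± 0.444%, 4.23 ± 0.656% and 4.38 ± 0.255% in the following parts, and 6.31 ± 0.332% in the 5 kb after it (SD, n = 3). In cKO it was 7.51 ± 1.1% before the gene, 4.25 ± 0.580% in the first part, 6.05 ± 1.15%, 6.71 ± 0.674%, 6.58 ± 1.996% and 6.07 ± 1.04% in the following parts, and 7.74 ± 1.57% after it. The first part was the only one of the 7 in which the genotypes had nearly the same mean. Its libraries ranged from 3.75 to 4.94% in WT and from 3.60 to 4.71% in cKO. For the remaining Zfp genes the first part was at 2.45 ± 0.187% in WT and 3.78 ± 0.795% in cKO. The difference between the 2 gene sets in this part was not tested.

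**Figure D3:**
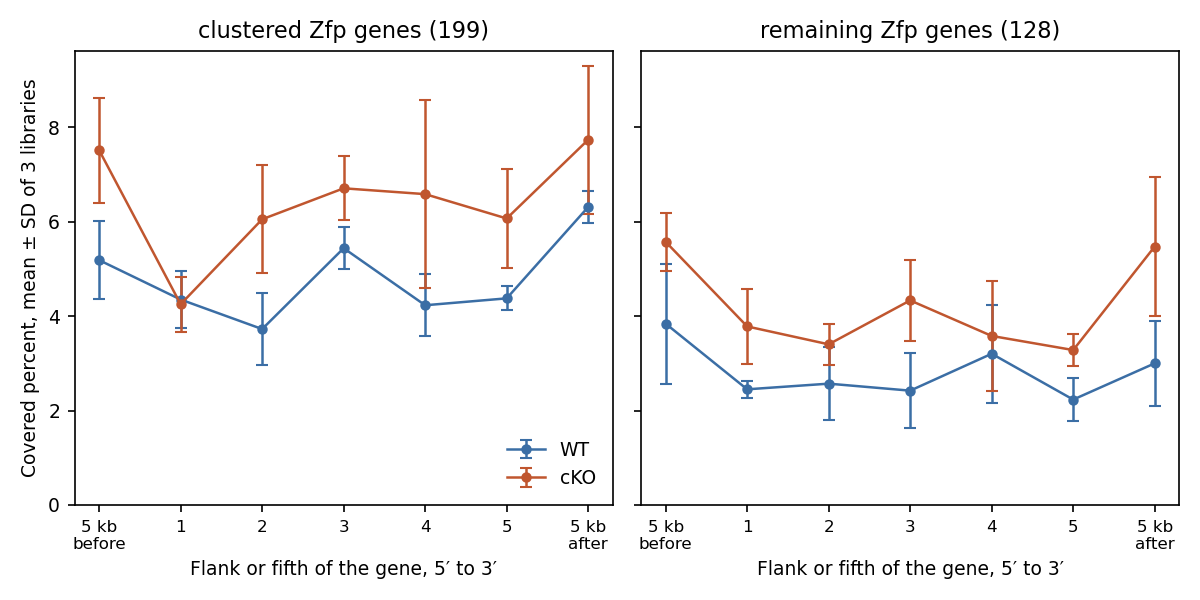
Covered percent in the 5 kb before the gene, in 5 equal parts of the gene and in the 5 kb after it, for 199 clustered (left) and 128 remaining (right) Zfp genes with a listed strand. Points and bars give the mean ± SD of 3 libraries; in clustered genes the first part is at 4.35% in WT and 4.25% in cKO.

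Seen as whole clusters, coverage of the joined member spans had a higher cKO mean in 29 of 34 clusters and a lower one in 4, Zfp965 alone having none. The libraries did not overlap in 9 clusters with cKO higher and in 1 with cKO lower. Windows of 200 kb over the genome did so in 17.8% and 2.95%. Relative to genome-wide coverage, 9 clusters were higher without overlap and 0 lower, against 10.4% and 8.94% of such windows. A cluster's joined spans vary in length, so the windows are an approximate background.

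Of the 18 clusters of 5 or more members, 16 had a higher cKO mean and 2 a lower one. In 3 of them, all on chromosome 7, coverage was higher in every cKO library. The 10 members from Zfp553 to Zfp646 were at 3.65, 5.81 and 5.33% in cKO and 2.58, 1.73 and 1.30% in WT. The 15 members from Zfp84 to Zfp146, which include the placental regulator Zfp568, were at 7.19, 6.25 and 5.71% in cKO and 4.70, 4.27 and 3.62% in WT. The 9 members from Zfp607b to Zfp36 were at 7.32, 6.71 and 6.64% in cKO and 4.80, 5.32 and 5.66% in WT. Relative to genome-wide coverage the first 2 still did not overlap, while the Zfp607b cluster did, and the 5 members from Zfp653 to Zfp810 on chromosome 9 joined them. That cluster was at 10.4, 8.12 and 5.42% in cKO and 4.68, 5.63 and 4.22% in WT.

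Both large clusters of chromosome 4 had a lower cKO mean. These clusters hold young, mouse-specific KRAB zinc-finger genes. The 6 members from Zfp980 to Zfp993 were at 2.61, 2.52 and 2.56% in cKO and 2.90, 2.72 and 2.86% in WT. Their joined spans came to 665 kb, most of it the span of Zfp993 alone, which is 478.62 kb long. The 9 members from Zfp978 to Zfp933 were at 3.97, 4.35 and 3.76% in cKO and 5.41, 4.17 and 3.71% in WT. Only the first separated the genotypes, narrowly, and on the relative scale it did not. Within it Zfp980 was highest, at 6.67, 10.02 and 5.05% in WT and 12.1, 14.9 and 3.39% in cKO.

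The largest cluster in number, 24 members from Zfp640 to Zfp273 on chromosome 13, had the highest WT mean of the 18. It stood at 6.89, 7.55 and 5.50% in WT and 8.21, 7.47 and 5.99% in cKO. Its relative coverage was 1.74 ± 0.113 in WT and 1.62 ± 0.0782 in cKO (SD, n = 3), so its direction depended on the scale. The 23 members from Zfp160 to Zfp13 on chromosome 17 were at 4.47, 6.84 and 5.04% in WT and 8.75, 6.86 and 4.44% in cKO. The 13 members from Zfp871 to Zfp414 on the same chromosome were at 5.76, 5.39 and 4.89% in WT and 8.31, 5.63 and 6.01% in cKO. The genotypes overlapped in all 3 clusters. Zfp101, the highest member of the last, was at 8.79, 7.99 and 7.91% in WT and 18.05, 14.9 and 7.04% in cKO.

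On chromosome 7 a further 5 large clusters overlapped between genotypes. The 13 members from Zfp180 to Zfp574 were at 6.20, 5.69 and 4.14% in WT and 7.56, 6.69 and 5.57% in cKO. The 9 members from Zfp141 to Zfp819 were at 5.24, 6.10 and 3.05% in WT and 8.71, 6.74 and 4.80% in cKO. The 7 members from Zfp551 to Zfp446 were at 4.72, 5.52 and 7.12% in WT and 4.72, 6.35 and 6.89% in cKO. The Zfp551 cluster was the nearest to no difference, 0.200 points between means. The 6 members from Zfp787 to Zfp28 were at 3.05, 5.38 and 6.85% in WT and 7.20, 7.19 and 5.03% in cKO. The 6 members from Zfp628 to Zfp580 were at 0, 3.31 and 1.51% in WT and 1.67, 7.25 and 2.03% in cKO. In the Zfp628 cluster replicate 2 was the highest library of each genotype.

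The clusters elsewhere behaved alike in overlapping. The 6 members from Zfp930 to Zfp866 on chromosome 8 were at 3.02, 7.68 and 7.35% in WT and 7.20, 7.87 and 7.82% in cKO. The 5 members from Zfp560 to Zfp846 on chromosome 9 were at 5.96, 7.34 and 4.10% in WT and 7.91, 7.51 and 6.25% in cKO. The 6 members from Zfp354c to Zfp354a on chromosome 11 were at 6.07, 7.32 and 3.59% in WT and 3.90, 9.36 and 7.39% in cKO. Coverage was lowest in the 8 members from Zfp786 to Zfp467 on chromosome 6. They were at 1.53, 1.02 and 0.864% in WT and 2.70, 3.92 and 0.991% in cKO.

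**Figure D4:**
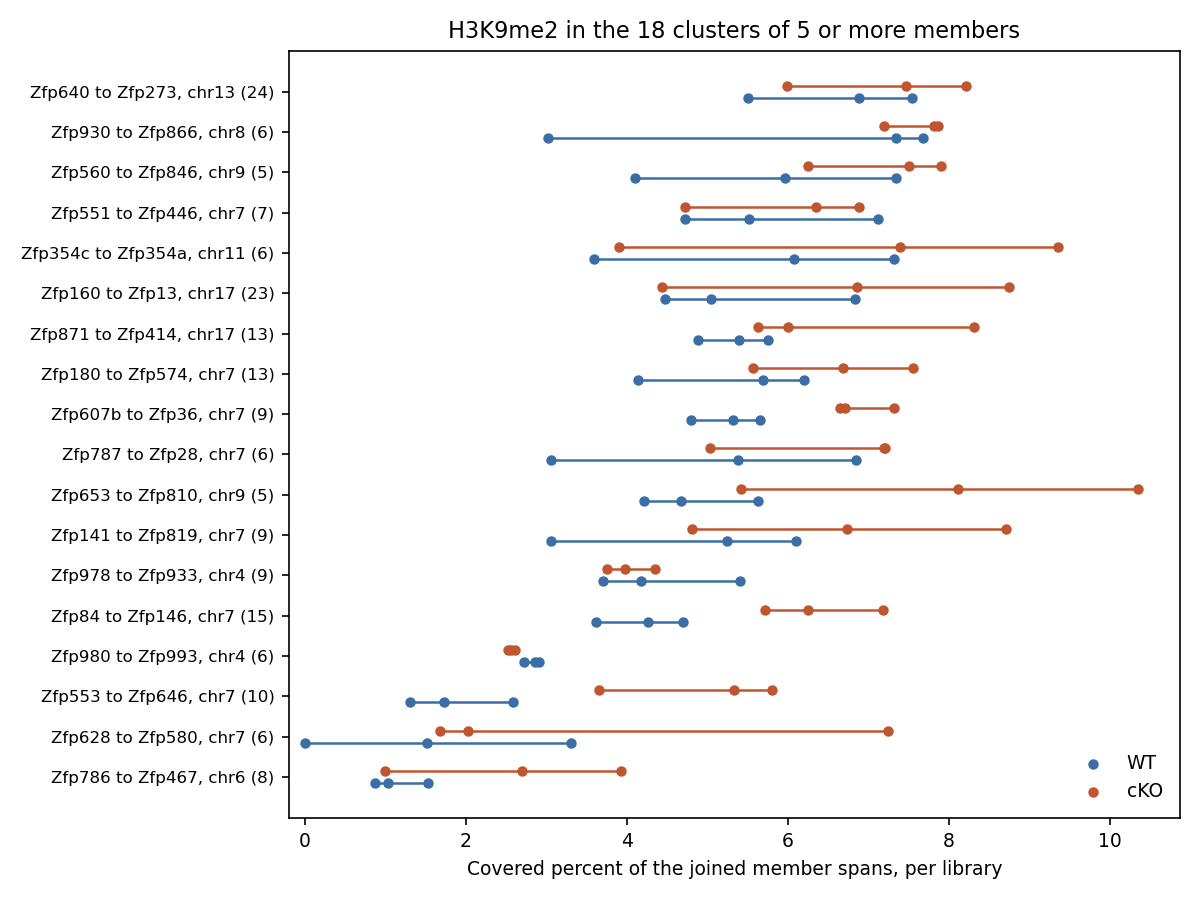
Covered percent of the joined member spans in each library for the 18 clusters of 5 or more members, ordered by WT mean, with the number of members in brackets. Points are libraries and lines join the lowest and highest of a genotype; 3 clusters on chromosome 7 lie higher in cKO without overlap and the Zfp980 cluster on chromosome 4 lies lower.

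The largest cluster difference was in a small one, chosen after its values were seen: 4 members from Zfp709 to Zfp961 on chromosome 8. Its joined spans were at 10.1, 9.72 and 8.20% in cKO and 1.40, 2.67 and 3.72% in WT. It includes Zfp617. The neighbour Zfp961 was at 5.99, 6.32 and 8.88% in cKO and 2.34, 4.40 and 1.71% in WT, while Zfp709 and Zfp882 overlapped. Zfp709 was at 12.1, 2.44 and 7.82% in cKO and 0, 0 and 10.7% in WT.

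A test at cluster scale was possible in windows of 1 Mb, of which 35 held 3 or more members. Relative coverage was higher in cKO on average in 23 of them and lower in 12. By limma over 2571 windows with Benjamini-Hochberg adjustment, 1 of the 35 was called higher and 1 lower, where 3.77% and 10.7% of all windows were. The higher one, chr7:127000001-128000000, holds the Zfp553 to Zfp646 genes, and its relative coverage was 0.509, 1.13 and 0.861 in cKO and 0.204, 0.484 and 0.503 in WT. The difference was 0.435 (SE 0.133, adjusted p = 0.0128 by limma). It was not called without cKO replicate 2 (0.288, adjusted p = 0.219 by limma), cKO replicate 3 (0.420, adjusted p = 0.0859) or WT replicate 1 (0.339, adjusted p = 0.174), nor with equal-length lists, where it was 0.102 (adjusted p = 0.965). The lower one, chr7:42000001-43000000, holds Zfp141, Zfp977, Zfp976 and Zfp975, and its relative coverage was 1.46, 1.26 and 1.37 in cKO and 1.94, 1.70 and 1.96 in WT. The difference was -0.505 (SE 0.168, adjusted p = 0.0251 by limma), and the call was lost, at differences of -0.455, -0.507, -0.467 and -0.457, without cKO replicate 2, cKO replicate 3, WT replicate 1 or WT replicate 3 (adjusted p 0.139, 0.119, 0.104 and 0.0662 by limma). Unscaled, that window was at 7.82, 5.62 and 4.97% in cKO and 7.56, 6.95 and 6.66% in WT, which overlap, with means of 6.14 and 7.06%. Zfp141 and Zfp975, inside the lower window, were both among the 29 members higher in cKO without scaling. Their direction was thus opposite to that of the unscaled window means, while the call was made on relative coverage. The fit gave all windows of a like level 1 spread, so a window's own spread hardly entered its p.

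At the finest scale, windows of 1 kb were compared between libraries. Of 7112 windows of 1 kb in member spans, 10 were covered over at least 500 bp in all 3 WT libraries, 15 in all 3 cKO libraries and 0 in all 6. These are 0.141%, 0.211% and 0%, against 0.110%, 0.141% and 0.00695% of the genome's windows. Windows so covered in 3 cKO and 0 WT libraries numbered 8, or 0.112%, against 0.058% of the genome's windows. Those in 0 cKO and 3 WT numbered 7, or 0.0984%, against 0.0374%. The first kind lay at Zfp617, Zfp868, Zfp869, Zfp26, Zfp445, Zfp738 and Zfp994 and between Zfp429 and Zfp459. At Zfp994, chr17:22228001-22229000 was also covered in WT, for 369, 189 and 255 bp, below the cut of 500 bp. The adjoining window, chr17:22229001-22230000, was covered for 1000 bp in each WT library and for 1000, 74 and 1000 bp in cKO. Zfp445 helps to maintain imprints in the mouse. Its window, chr9:122868001-122869000, was covered for 1000 bp in each cKO library and for 0, 92 and 0 bp in WT. The second kind lay at Zfp937, Zfp235, Zfp974, Zfp160, Zfp945 and, with 2 windows, Zfp978. At Zfp978, chr4:147350001-147351000 was covered for 1000 bp in each WT library and 0 bp in each cKO library. The other Zfp978 window, chr4:147390001-147391000, was covered for 593, 835 and 858 bp in WT and for 482, 0 and 0 bp in cKO. Windows of both kinds were thus found, and with windows of 5 kb none was covered over its greater part in all 3 libraries of a genotype.

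No gene of known function was called. Of 24 Zfp genes listed for a published role, 19 are members, and 0 of the 22 tested were called. Zfp809, which silences proviral DNA in mouse stem cells, was at 5.23, 3.90 and 6.48% in cKO and 1.30, 6.43 and 1.79% in WT. Zfp568, which represses a placental Igf2 transcript, was at 4.93, 1.84 and 4.24% in cKO and 0.920, 3.68 and 2.76% in WT. Zfp708, which binds retroelements, was at 8.93, 7.59 and 8.70% in cKO and 9.71, 7.65 and 3.14% in WT. The genotypes overlapped in all 3 genes. Zfp819, linked to retroelement repression in pluripotent cells, was at 10.003, 15.9 and 2.36% in cKO and 11.0, 2.36 and 2.36% in WT. On chromosome 13, Zfp58, Zfp87, Zfp455, Zfp457, Zfp458 and Zfp459 all overlapped too. Zfp354c of chromosome 11 was at 9.02, 5.90 and 8.67% in cKO and 5.67, 4.52 and 3.75% in WT, without overlap, with an adjusted p of 0.581 by limma. Zfp36 was at 0% in all 3 cKO libraries and at 4.02, 0 and 0% in WT, and it had an ATAC peak in both tissues.

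A list of 31 genes, none of them a member, held genes through which KRAB zinc-finger proteins act and other chromatin genes. Among the latter were the H3K9 demethylase genes Kdm3a, Kdm3b, Kdm4a, Kdm4b, Kdm4c and Jmjd1c. Of 27 tested, 0 were called, 7 were higher in cKO without overlap (Setdb1, Atf7ip, Tasor, Pphln1, Hdac1, Kdm3a and Kdm4a) and 0 were lower, where 11.6% and 1.19% of all genes were. The median difference was 1.08 points, against 1.03 over all genes. Setdb1, the methyltransferase recruited by TRIM28, was at 3.36, 3.61 and 3.30% in cKO and 1.14, 0 and 0% in WT (adjusted p = 0.556 by limma). Trim28 itself and Daxx, a histone chaperone, were at 0% in all 6 libraries. Jmjd1c, the targeted gene, was at 2.14, 3.26 and 1.78% in cKO and 1.46, 2.15 and 1.47% in WT, which is no check of the knockout, since coverage by this mark does not show a deletion. An ATAC peak lay at 30 of the 31 genes in tumour and 26 in spleen.

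Open chromatin was frequent at members. In tumour Treg 183 of 230 members, or 79.6% (95% exact binomial interval 73.8 to 84.6%), had an ATAC peak in the span, and in spleen Treg 156, or 67.8% (61.4 to 73.8%). Over all genes 60.6% and 47.6% had one, and of the remaining Zfp genes 78.9% and 62.7%. There was 1 ATAC library per tissue, so the tissues have no test, and the intervals cover counting error only. The tumour list held 27655 peaks and the spleen list 13089 at like depth, 11293674 and 11068821 tags. The lists were called at unlike peak sizes, 322 bp in tumour and 869 bp in spleen, and the effect of this was not tested. With lists of equal length the tumour share was 54.8%, below the 67.8% of spleen. With only the stronger peaks of each list tumour stayed higher, at 58.3% against 43.5%. The direction between tissues thus depended on how the lists were cut, and its cause was not tested. Of 199 members with a listed start, 149 had a tumour peak within 500 bp of it and 127 a spleen peak.

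A peak in both tissues was found at 155 members, in tumour only at 28, in spleen only at 1 and in neither at 46. H3K9me2 coverage in WT was 4.87 ± 0.663% for members with both, 4.55 ± 0.351% with tumour only and 4.15 ± 0.873% with neither (SD, n = 3). In cKO it was 6.74 ± 0.985%, 6.14 ± 1.06% and 5.67 ± 0.712%. Members with a peak in both tissues exceeded those with none in 5 of 6 libraries, the exception being WT replicate 1 at 4.54 and 4.83%. This order was not tested. The tumour-only members with the highest peak scores were Zfp974, Zfp414, Zfp746, Zfp707, Zfp282, Zfp984, Zfp768 and Zfp382, with scores from 48.5 down to 28.5 tags. Zfp707 on chromosome 15 was at 10.5, 6.54 and 10.5% in cKO and 0, 5.97 and 3.80% in WT. Zfp382 was at 10.8, 8.10 and 12.0% in cKO and 7.65, 3.91 and 4.70% in WT. In both genes cKO was higher without overlap, whereas Zfp974 was at 3.29, 9.89 and 6.59% in cKO and 8.90, 8.27 and 13.5% in WT, which overlap.

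**Figure D5:**
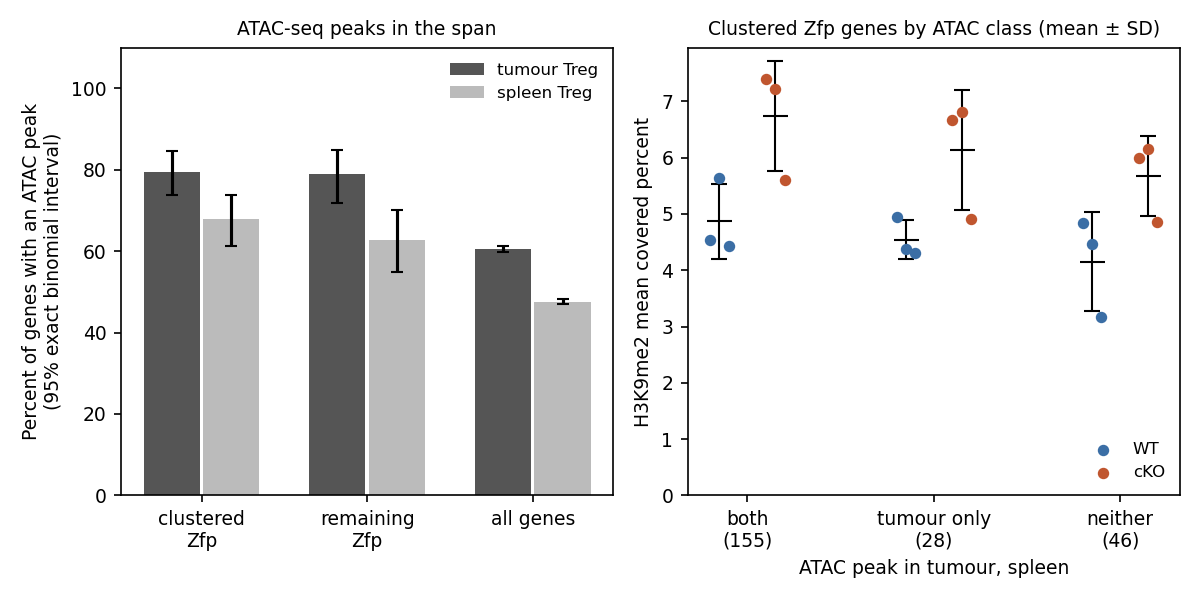
Left, percent of genes with an ATAC peak in the span in 1 tumour and 1 spleen Treg library, with 95% exact binomial intervals; right, H3K9me2 covered percent of clustered Zfp genes by ATAC class, with points for libraries and bars for mean ± SD of 3. Members stand at 79.6% in tumour and 67.8% in spleen, and H3K9me2 coverage of the 3 classes is 4.87, 4.55 and 4.15% in WT and 6.74, 6.14 and 5.67% in cKO.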

How the data were processed

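Peaks were called by HOMER on single libraries with no control, per the file headers; H3K9me2 used histone style, size 500 bp, tag threshold 5, and a local filter over 10 kb at a p of 0.05. The deposited H3K9me2 lists hold 24.4 to 43.9% of the peaks their headers count, so a further filter, not stated, was applied. The build mm10, Bowtie2 2.4.2 and SAMtools 1.11, with Picard, deepTools and Trim Galore 0.6.6, come from the submitters' processing notes, which give no roles. The deposited lists give for each peak a tag signal, a score, a fold over the local region, a p-value and, for H3K9me2, the region size, and for ATAC a focus ratio, a fraction of tags; scores ranked peaks within a list only. Covered percent was computed from merged peaks over RefSeq gene spans (GRCm38.p6, the mm10 build) and tested with limma 3.58.1 in R 4.3.3, with a mean-variance trend and Benjamini-Hochberg adjustment over all genes with a mean of 1% or more. Peak calling on local contrast can miss broad, even domains, and reads from near-identical paralogs may be lost; that was not tested. The fit was also run on simulated data with shifts well above the median member difference. That run does not bear on differences of the median size. Members and lists were chosen with earlier results of these data known. Named genes were the members with the smallest p among those without overlap, the highest over 6 libraries, the highest in each large cluster, those of published role, and those with an ATAC peak in 1 tissue.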

Additional observations from a re-analysis of the deposited data

How the results depend on the processing

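The member difference of 1.75 points kept its direction under every alternative run, from 0.859 points with equal-length lists to 2.30 without cKO replicate 3; leaving out 1 library gave 1.47 to 2.30. Averaging cKO replicates 1 and 3, whose sample names in the headers share a number, was chosen after seeing the data and gave 1.88. The 29 members higher in cKO were 15 with equal-length lists and 37 to 60 with 1 library left out; the 3 lower were 5 after scaling and 4 to 12 with 1 left out. The clustered excess over the remaining genes became 0.602 points in WT and 1.53 in cKO with only the stronger peaks of each list, and in cKO 1.69 with 20 kb flanks and 2.21 with a cluster distance of 250 kb (192 members); with 1 library left out it was 1.27 to 1.78 in WT and 1.85 to 2.04 in cKO. limma called 0 members under all 15 alternatives. The 1 window called higher became 0 without scaling, with equal-length lists and with 500 kb windows, and 0 to 2 with 1 library left out. The 1 called lower became 0 in these and with the stronger peaks, and 0 to 1 with 1 left out. The ATAC share was 58.3% in tumour and 43.5% in spleen with only the stronger peaks of each list, and 54.8% in tumour with equal-length lists. Windows of 1 kb marked in all 3 libraries, 10 in WT and 15 in cKO, became 55 and 67 when any touch counted, and 0 and 0 with 5 kb windows. Zfp28, lower by 1.78 points in cKO, was 1.70 points higher without flanks. The causes were not tested. Same-number correlations were small (0.0754, 0.00478 and 0.0262), but whether replicate numbers pair the libraries was not settled. The replicate block left the mean difference at 1.75 and the calls of members at 0, and called 2 member windows higher and 1 lower. Over all 1 Mb windows, however, limma called 660 with the block and 373 without it. The effect of sequencing depth on single members was not tested.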
